A study of Caenorhabditis elegans with 2 samples.

Results

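The genes described here were grouped as constitutive chaperone and chaperonin genes, and the question was at which of their promoters tagged SDZ-12 was found. Members were all protein-coding genes of the Ensembl annotation whose name begins with hsp-, dnj- or cct-, leaving out the heat-inducible hsp-16 and hsp-70 names. This gave 52 of 19973 protein-coding genes, namely 29 dnj genes, 8 cct genes and 15 hsp genes. The rule reads gene names alone, but the set was picked for description with earlier results of these data known. The 15 hsp genes include 7 small heat shock protein genes and hsp-4, an endoplasmic reticulum Hsp70 gene known for its induction when proteins misfold there. The word "constitutive" is thus a label of the set that need not hold for every member, and expression was not measured here.

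The data come from chromatin immunoprecipitation of SDZ-12, a C2H2 zinc finger protein, in Caenorhabditis elegans. The labels name a single condition, sampled as 2 biological replicates. Each replicate was made from entire animals at the L4 stage, both sexes together, at an age of 71 hours, after synchronisation by starving L1 larvae hatched from bleached worms. Strain OP670 carries the allele unc-119(tm4063) and the transgene wgIs670, which supplies sdz-12::TY1::EGFP::3xFLAG together with unc-119(+). The precipitation used an antibody against GFP. Both replicates share this 1 transgenic line, and no untagged or other strain was analysed here, so binding of the tagged protein and background of the precipitation at a promoter cannot be told apart. As whole animals were used, the tissue in which a site was occupied is not given by these data.

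Chaperones hold unfolded proteins and help them reach their shape. Hsp70 proteins bind short stretches of a client in a cycle driven by ATP, J domain proteins (the dnj genes) bring clients and start ATP hydrolysis, and Hsp110 proteins release the nucleotide. Chaperonins are barrels in which a protein folds in isolation: TRiC, built from the CCT subunits, in the cytosol, and Hsp60 with its lid Hsp10 in mitochondria. Small Hsps hold clients without ATP. Each compartment has its own Hsp70, which in the worm is hsp-1 in the cytosol, hsp-3 and hsp-4 in the endoplasmic reticulum (ER) and hsp-6 in mitochondria.

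Each deposited list gives calls, which are genomic intervals with a summit and the authors' signal value, a score of enrichment whose scale the labels and file listings do not state. The replicate 1, replicate 2 and pooled lists each hold 30000 calls, background calls included, and the optimal list holds 665. All 665 optimal calls are the 665 strongest pooled calls. A gene was counted where a summit lay from 1000 bp upstream to 200 bp downstream of its 5' end, and the strongest such call was taken. Signals are given per list and ranks (1 is the strongest call) are used between lists. With 1 group there is no test between conditions, and the main counts stand beside the same counts over all protein-coding genes. Read depth is unknown.

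Of the 52 chaperone genes, 5 (9.62%) had an optimal call at the promoter, against 1.61% of all 19973 protein-coding genes. They were hsp-1, dnj-13, cct-8, hsp-60 and hsp-3. By compartment these were 3 of 15 cytosolic genes, 1 of 7 ER genes and 1 of 5 mitochondrial genes. They included 0 of 2 vesicle genes and 0 of the 23 members without an assigned compartment. The ER and mitochondrial counts rest on 1 gene each, and the mitochondrial summit lies nearer to the 5' end of a neighbouring gene. A sixth chaperone gene, hsp-90, had an optimal call inside the gene, upstream of an inner transcript start. The windows of 50 bp on either side of these 6 summits are shown because they are the sites on which the rest of the account turns. They are from the RefSeq copy of WBcel235 (ce11), read on the strand of the gene with the summit in the middle. Capitals mark the fixed letters of GAANNTTC, a pair of the units that heat shock factor is known to bind, and CCAAT on either strand.

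hsp-1 (chrIV:17278504-17278604, plus strand): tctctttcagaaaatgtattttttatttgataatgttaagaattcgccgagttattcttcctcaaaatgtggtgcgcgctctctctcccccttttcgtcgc
dnj-13 (chrII:11545449-11545549, plus strand): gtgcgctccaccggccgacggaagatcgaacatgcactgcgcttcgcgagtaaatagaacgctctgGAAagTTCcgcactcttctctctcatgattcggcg
cct-8 (chrIV:1094270-1094370, minus strand): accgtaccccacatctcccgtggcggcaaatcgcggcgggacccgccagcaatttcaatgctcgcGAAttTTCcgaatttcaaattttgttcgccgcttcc
hsp-60 (chrIII:1619071-1619171, plus strand): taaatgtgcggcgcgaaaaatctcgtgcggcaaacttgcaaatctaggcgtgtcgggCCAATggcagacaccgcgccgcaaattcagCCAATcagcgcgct
hsp-3 (chrX:6092136-6092236, minus strand): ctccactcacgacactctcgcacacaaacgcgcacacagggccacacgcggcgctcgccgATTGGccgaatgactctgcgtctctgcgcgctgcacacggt
hsp-90 (chrV:14685728-14685828, plus strand): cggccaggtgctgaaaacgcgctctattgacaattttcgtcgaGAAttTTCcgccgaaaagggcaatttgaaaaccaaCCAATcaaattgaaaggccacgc

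GAANNTTC stood in 3 of these 6 windows, those of dnj-13, cct-8 and hsp-90. It was found in 31 of all 665 optimal windows (4.66%) and in 6.77% of windows of the same length centred 200 bp upstream of all protein-coding 5' ends. The motif equals its own reverse complement. At cct-8 it lay 15 to 22 bp downstream of the summit and at dnj-13 16 to 23 bp downstream, while at hsp-90 it covered the 8 bases that end at the summit. The reverse order of units, TTCNNGAA, stood in 0 of the 6 windows, against 5.11% of optimal and 6.65% of promoter windows. The form with 3 such units in a row was in 0 of the 6, against 0.451% and 0.741%. TATAAA was in 0 of the 6, against 6.62% and 13.1%. The SKN-1 core letters GTCAT or ATCAT were in 2 of the 6 (hsp-3 and dnj-13), against 24.7% and 33.3%. GAGAG was in 3 of the 6 (hsp-1, dnj-13 and hsp-3), against 193 of the 665 optimal windows (29.0%) and 2995 of 19973 promoter windows. CCAAT was searched after the sequences were seen. It stood in 3 of the 6 windows (hsp-60, hsp-3 and hsp-90), against 17.3% and 18.4%. Each motif was sought on both strands, and a match is a description of letters, with only 6 windows behind it. Of the 6, the hsp-90 window lies outside the promoter rule and was picked out after its values were seen. The windows had a median GC content of 55.9%, against 47.5% over all optimal windows and 33.7% over the promoter windows, and the windows of hsp-1 (39.6%) and hsp-90 (46.5%) were the lowest of the 6.

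The cytosolic Hsp70 gene and its J domain partner had the strongest calls of the set. At hsp-1 (WBGene00002005, IV:17278959-17281330, plus strand) the signal was 308 in the pooled list (rank 28), 181 in replicate 1 (rank 18) and 129.6 in replicate 2 (rank 55). The summits lay at -405, -459 and -396 bp from the 5' end in the 3 lists, and the pooled one was in sequence between genes and in the promoter window of no other coding gene. At dnj-13 (WBGene00001031, II:11545701-11547360, plus strand), whose product is a cytosolic partner of Hsp70 of the class that also includes human DNAJB1, the signal was 280.3 in the pooled list (rank 45), 131 in replicate 1 (rank 76) and 145 in replicate 2 (rank 33). Its pooled summit lay 202 bp upstream, and at -671 bp from the 5' end of the divergent gene F54D5.9. The summit fell within the span of the overlapping gene dhgd-1 and in an annotated exon outside coding sequence. Both genes thus ranked among the 100 strongest calls in each replicate, with hsp-1 the higher in replicate 1 and dnj-13 in replicate 2. A second and separate optimal call lay at the 3' end of hsp-1, 2360 bp from the 5' end, at rank 642 in the pooled list, 563 in replicate 1 and 1070 in replicate 2.

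Among the 8 CCT genes of the cytosolic chaperonin, cct-8 alone had an optimal call (12.5%, against 1.61% of all protein-coding genes). The complex holds all 8 products in equal number, as background. At cct-8 (WBGene00021934, IV:1087108-1093920, minus strand) the signal was 249 in the pooled list (rank 68), 126 in replicate 1 (rank 93) and 119 in replicate 2 (rank 79). Its summit lay 400 bp upstream of cct-8 and 221 bp upstream of the divergent gene Y55F3AR.2, which RefSeq names as a thioredoxin domain protein, so position does not assign it to one of the neighbours. The next, cct-7, had a pooled signal of 104 (rank 2260) at 311 bp upstream, with ranks of 4870 and 1921 in replicates 1 and 2. Its summit lay nearer to the 5' end of the divergent gene T10B5.4, at 128 bp. At cct-6 a pooled call of signal 57.4 ranked 20340, replicate 1 had a call at rank 6437 and replicate 2 had none. At cct-2 the only call was in replicate 1, at rank 28984. For cct-1, cct-3, cct-4 and cct-5 no list held a call in the window. Inside the gene, beyond the first 200 bp, all 8 had a pooled call, against 48.4% of all protein-coding genes, with no allowance for gene length. The strongest of these was 1708 bp inside cct-4, at pooled rank 3221, with ranks of 1364 and 24010 in replicates 1 and 2.

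In mitochondria the chaperonin gene had a strong call and the Hsp70 gene a weak one. At hsp-60 (WBGene00002025, III:1619742-1625803, plus strand) the signal was 200.3 in the pooled list (rank 157), 81.2 in replicate 1 (rank 502) and 116 in replicate 2 (rank 88). The summit lay 621 bp upstream of hsp-60 and 192 bp upstream of its divergent neighbour Y22D7AL.10 (III:1617151-1618929, minus strand), which RefSeq names as the mitochondrial Hsp10. The call therefore sits between the genes of the barrel and of its lid, nearer to the lid gene. At hsp-6, the mitochondrial Hsp70 gene, the pooled signal was 90.1 (rank 4327), with ranks of 3089 and 8492 in replicates 1 and 2. That summit lay 700 bp upstream in a coding exon of the divergent gene C37H5.5, 100 bp from its 5' end. For hsp-75, a mitochondrial member of the Hsp90 family, no list held a call. The mitochondrial J domain gene dnj-21, which works at the inner membrane import motor, had a pooled rank of 9991, and dnj-10 had no call in any list.

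In the ER the Hsp70 pair differed. At hsp-3 (WBGene00002007, X:6089028-6092124, minus strand) the signal was 182 in the pooled list (rank 235), 115 in replicate 1 (rank 131) and 68.7 in replicate 2 (rank 798). The pooled summit lay 62 bp upstream, the nearest to its own 5' end of the 5. Of the 5 it was the only one outside the 665 strongest calls of a replicate. At hsp-4, which encodes the related and more inducible ER Hsp70, the pooled signal was 63.3 (rank 15633) at -641 bp. The rank was 12411 in replicate 1. The strongest call of replicate 2 ranked 28523 and lay elsewhere, at -876 bp. Inside the genes, beyond the window, hsp-4 had a pooled call stronger than its promoter call, at 421 bp (rank 6604). The call inside hsp-3, at 792 bp (rank 2989), was weaker than its promoter call. Among ER J domain genes, dnj-29, a member of the Sec63 family of the translocation channel, had a pooled rank of 2586 at 138 bp upstream, dnj-27 a rank of 13994 and dnj-1 a rank of 28386. For dnj-7 and dnj-20 no list held a call in the window. An optimal call (rank 548) did lie 6629 bp into dnj-20, near the end of that gene of 6708 bp.

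The Hsp90 gene of the cytosol, hsp-90 (WBGene00000915, V:14684918-14688545, plus strand), depended on which transcript start was used. From the outermost 5' end the window held no pooled call and, in replicate 2 alone, a call at rank 29670. An optimal call lay 860 bp inside, with a signal of 234 in the pooled list (rank 90), 123 in replicate 1 (rank 103) and 114 in replicate 2 (rank 94). The annotation holds a second transcript of hsp-90 that starts at 14686160, and the summit lies at -382 bp from that start. The 5 optimal promoter summits lay between -621 bp (hsp-60) and -62 bp (hsp-3) from theirs. With any annotated transcript start allowed, 6 of 52 chaperone genes (11.5%) had an optimal call, against 1.83% of all protein-coding genes. This site was picked out after its values were seen. Beyond the first 200 bp of the gene, 3 of 52 members (hsp-1, hsp-90 and dnj-20) held an optimal summit, against 1.31% of all protein-coding genes. The nucleotide exchange gene hsp-110 had a pooled signal of 69.3 (rank 11820) at 65 bp inside the gene. Replicate 1 had a stronger-ranked call there, with a signal of 58.5 (rank 2356), and replicate 2 had none.

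**Figure D1:**
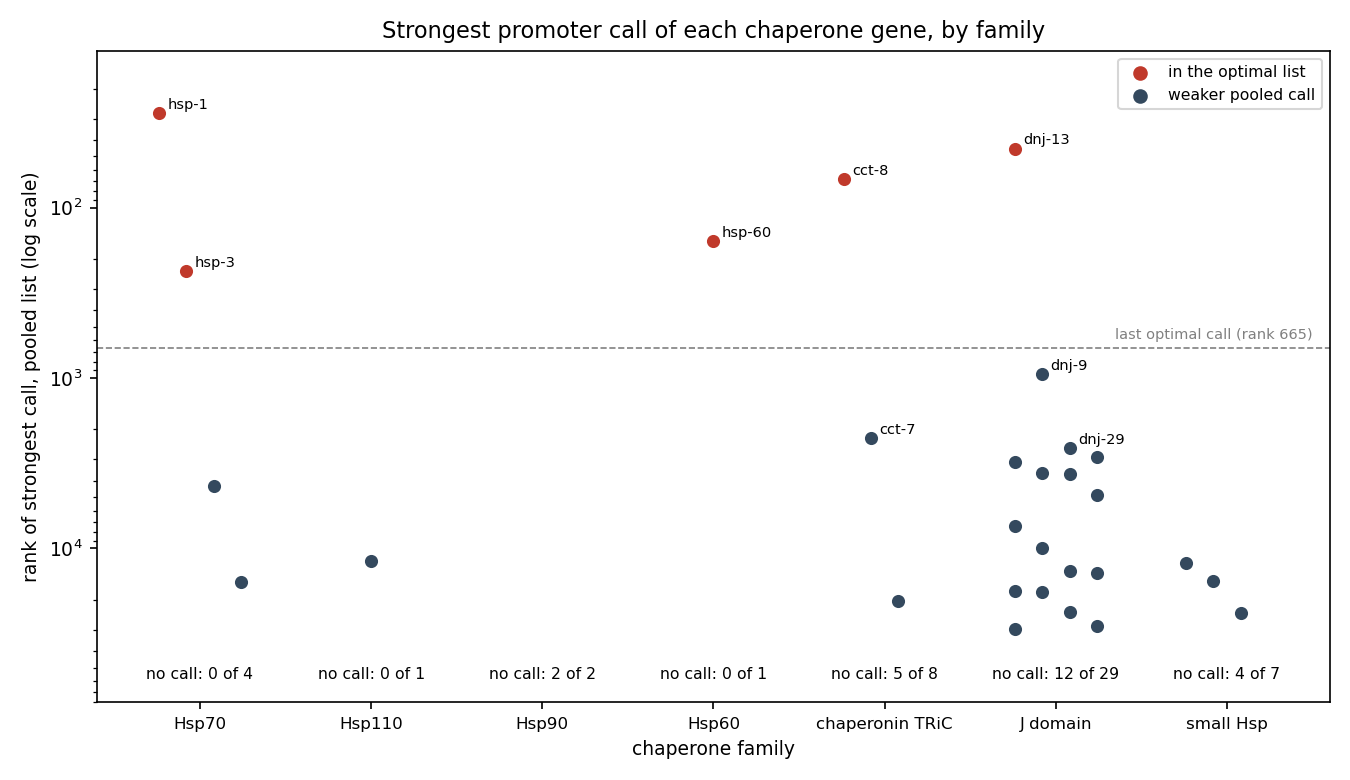
Rank of the strongest pooled call in the promoter window (log axis, strongest at the top) for each of the 52 chaperone genes, by family, with 1 point a gene and the number of genes without a pooled call below. The 5 genes in the optimal list lie at ranks 28 to 235, and the next gene, dnj-9, lies at 945. The call inside hsp-90 is outside the window and is not drawn.

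The J domain family had 1 optimal call, at dnj-13, among 29 genes (3.45%), against 1.61% of all protein-coding genes. Weaker calls were found in the pooled list at 16 further dnj genes, which makes 17 of 29 with any pooled call (58.6%), against 31.6%. The strongest of these was at dnj-9, with a signal of 126 in the pooled list (rank 945), 69.1 in replicate 1 (rank 1035) and 48.1 in replicate 2 (rank 4187), 206 bp upstream. It was followed by dnj-29, given above, and dnj-24, with a pooled rank of 2905 at 11 bp upstream and ranks of 4668 and 8414 in replicates 1 and 2. The type I cytosolic genes dnj-12 and dnj-19 had pooled ranks of 3122 and 4831 in the window. Both summits lay within 6 bp of the 5' end of a divergent gene, mtx-1 and nhr-47. Beyond the window, some genes held a pooled call stronger than their own promoter call. Among these were dnj-12 (1193 bp inside, rank 830), dnj-19 (1135 bp, rank 4307) and dnj-1 (2154 bp, rank 2628). At dnj-14, which encodes the cysteine string protein of synaptic vesicles, the pooled rank was 3605, and at dnj-25, the auxilin gene of clathrin uncoating, 29802. The ribosome-associated J domain gene dnj-11 had no call in any list. The remaining pooled promoter calls of the family, at dnj-2, dnj-3, dnj-5, dnj-15, dnj-18 and dnj-28, were all weaker than rank 3000. The promoter calls of dnj-1, dnj-21 and dnj-27 were too. A call at dnj-4 was in replicate 2 alone, and dnj-23 had one in each replicate but none in the pooled list. The other 10 of 29 (34.5%, against 54.1% of all protein-coding genes) had no call in any list, namely dnj-7, dnj-8, dnj-10, dnj-11, dnj-16, dnj-17, dnj-20, dnj-22, dnj-26 and dnj-30.

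Small Hsp genes had no optimal call and none among the 3000 strongest pooled calls, against 1.61% and 4.87% of all protein-coding genes, but they are only 7. Of these, 3 (42.9%, against 31.6%) had a pooled call, namely hsp-12.1, hsp-12.2 and hsp-43 at ranks 12242, 15597 and 23836. For hsp-12.3, hsp-12.6, hsp-17 and hsp-25 no list held a call in the window. A stronger call lay 714 bp from the 5' end of hsp-12.3, at the end of that gene of 717 bp (rank 1045), and another 607 bp inside hsp-17 (rank 1630). Of the 7 heat-inducible hsp-16 and hsp-70 genes that the rule leaves out, 2 had an optimal call, against 1.61% of all protein-coding genes.

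**Figure D2:**
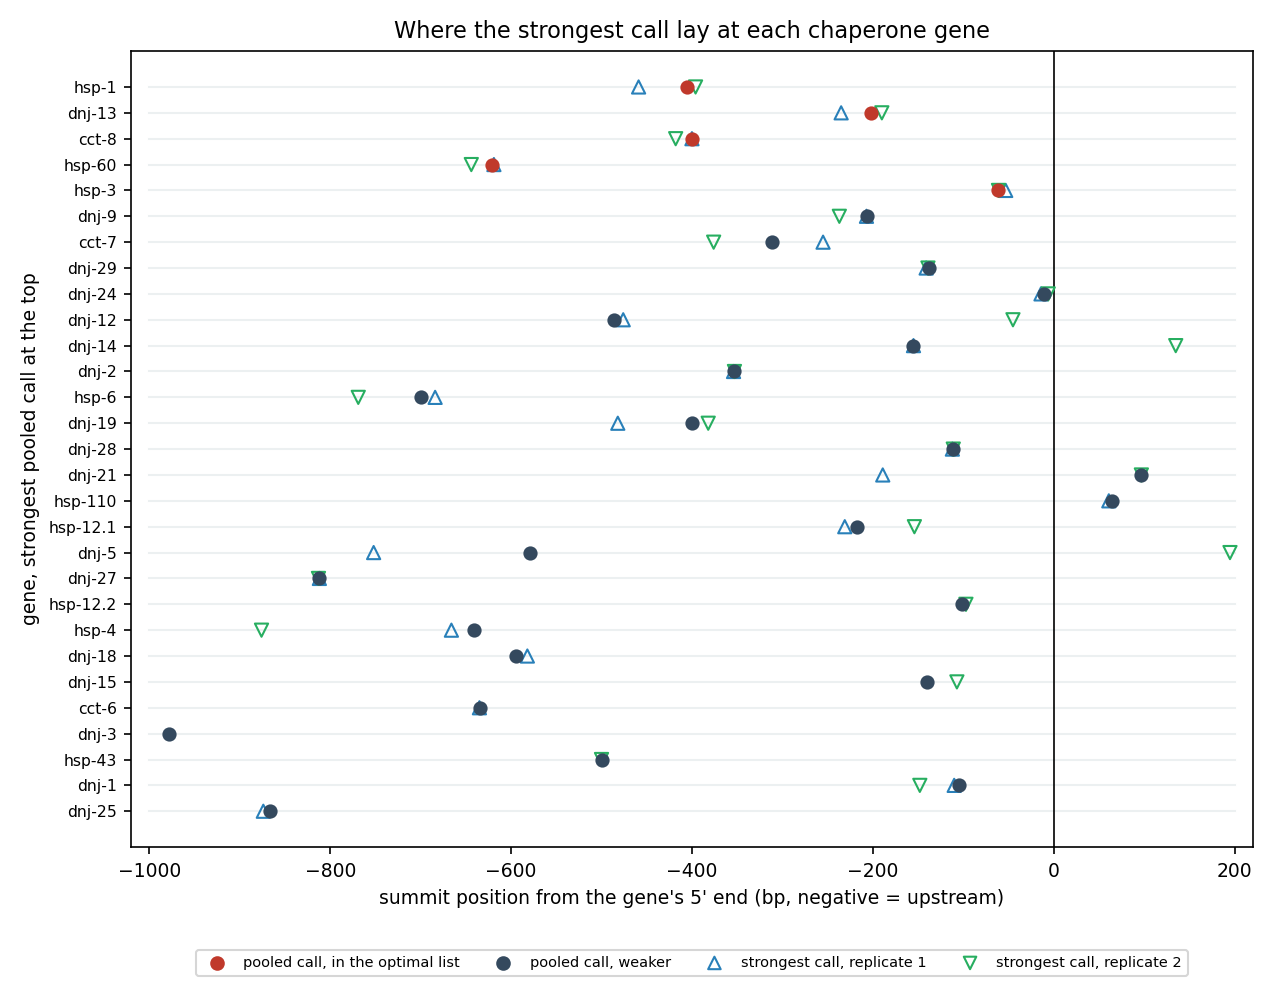
Position of the strongest summit from the gene's 5' end (bp, negative is upstream) for the 29 chaperone genes with a pooled call, strongest at the top. Filled circles are pooled calls and open triangles the strongest call of each replicate. At the top 5 genes the replicate summits lie close to the pooled one. At dnj-5, dnj-12, dnj-14, dnj-21 and hsp-4 the replicates' strongest calls lie over 200 bp apart.

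The share of genes with a call was higher among chaperone genes at every limit tried. Any pooled call was found at 29 of 52 genes (55.8%), against 31.6% of all protein-coding genes. The 3000 strongest pooled calls reached 9 genes (17.3%), against 4.87%, and added cct-7, dnj-9, dnj-24 and dnj-29 to the 5. The 100 strongest reached 3 genes, hsp-1, dnj-13 and cct-8 (5.77%), against 0.396%. The shares thus stood furthest apart, as a ratio, among the strongest calls and closest in the full list. No list held a call for 19 of 52 genes (36.5%), against 54.1%. The 24 members with a weaker pooled call had signals of 48.3 to 126 and a −log10 q-value, as the authors give it, of 0.0923 to 0.920, against 2.21 at each of the 5. The value 2.21 is the highest in the pooled list, so it does not tell the 5 apart. These weaker calls come from a list that includes background, so they are given as values and not as sites.

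**Figure D3:**
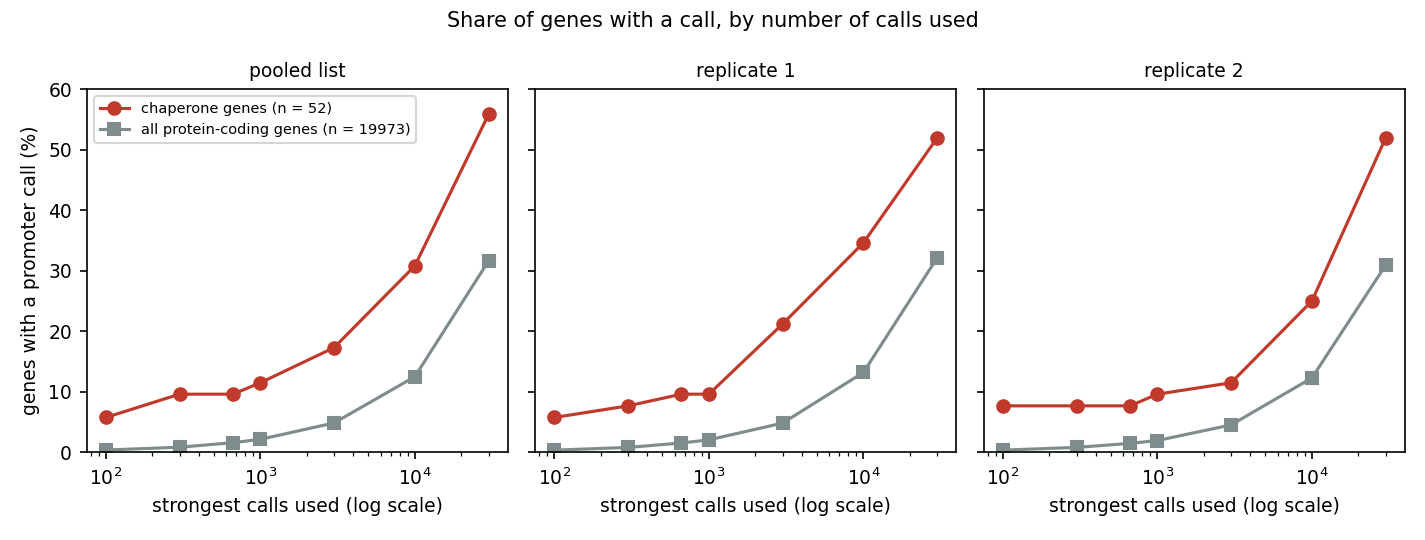
Share of genes (percent) with a call in the promoter window when the 100 to 30000 strongest calls of a list are used (log axis), for the pooled list and each replicate. Circles are the 52 chaperone genes and squares all 19973 protein-coding genes, and at 665 pooled calls the shares are 9.62% and 1.61%.

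The replicates shared most of the strongest sites, and below them some genes had a call in only 1 replicate. Among the 665 strongest calls of replicate 1 were the promoters of 5 of 52 members (9.62%), against 1.56% of all protein-coding genes, and among those of replicate 2 were 4 (7.69%), against 1.49%. In both replicates 4 members passed (hsp-1, dnj-13, cct-8 and hsp-60, 7.69%), against 0.961%. Any call was found at 27 of 52 members in replicate 1 (51.9%, against 32.1%) and at 27 in replicate 2 (51.9%, against 30.9%). These were not the same genes throughout, as 22 members had a call in both, 5 in replicate 1 alone, 5 in replicate 2 alone and 20 in neither. This split, and the counts of summits and ranks that follow, were not made over all protein-coding genes. They are therefore not read as traits of chaperone genes. At 16 of the 22 the strongest summits lay within 200 bp of each other. Across all 22 genes the ranks had a Spearman correlation of 0.649, and across these 16 genes it was 0.788. Across the 11 of the 16 without an optimal call it was 0.364. The 16 were picked for summits that lie close together, and the optimal list was derived with IDR from the same replicates. Leaving out its 5 members removes the strongest ranks, so the lower value cannot show that agreement falls below the strongest sites. All of these correlations are descriptions over genes from the same 2 libraries. Of the 16, 11 ranked higher in replicate 1 and 5 in replicate 2.

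**Figure D4:**
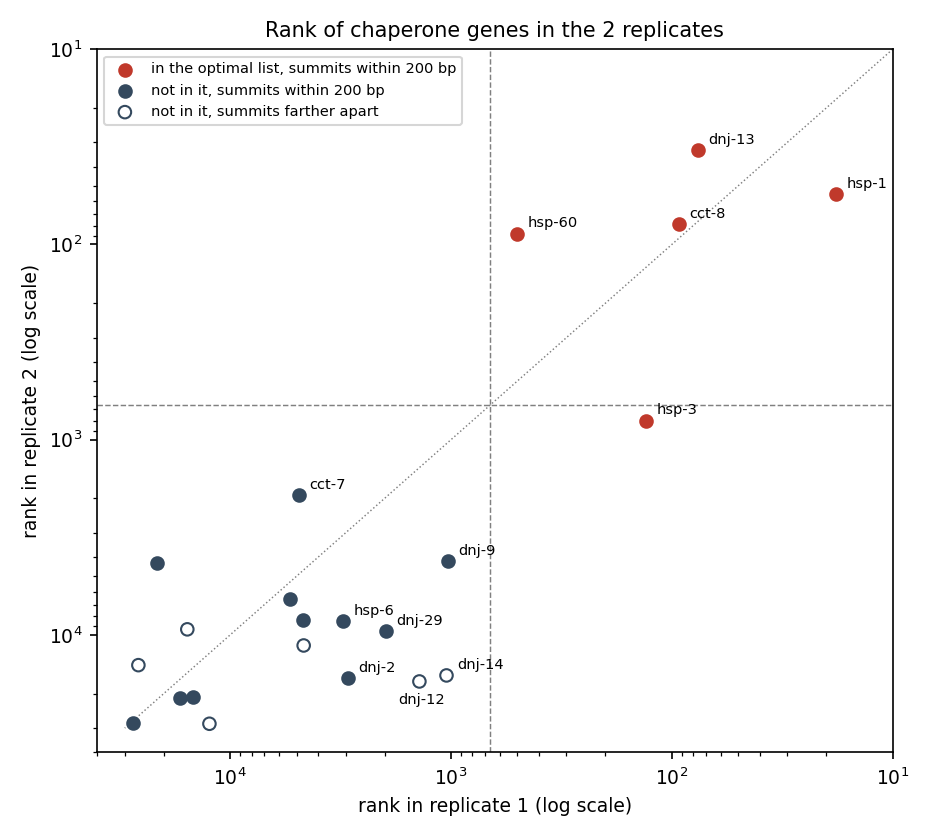
Rank of the strongest promoter call in replicate 1 and in replicate 2 (log axes, strongest at the upper right) for the 22 chaperone genes with a call in both. Dashed lines mark rank 665, and the dotted line marks equal ranks. The genes hsp-1, dnj-13, cct-8 and hsp-60 lie inside both lines, hsp-3 lies outside in replicate 2, and the other 17 genes lie outside both.

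The window reaches 1000 bp upstream and only 200 bp downstream, so most summits in it fall upstream by its shape. Of the 29 pooled summits of chaperone genes, 27 (93.1%) were upstream of the 5' end, against 77.6% of the 6309 protein-coding genes with a pooled call. Within the first 500 bp upstream lay 18 (62.1%), against 39.5%, and the median position was -353 bp, against -331 bp. Inside the gene, beyond the first 200 bp, a pooled call was found at 36 of 52 chaperone genes (69.2%), against 48.4% of all protein-coding genes, with no allowance for gene length. Of the 29 promoter summits, 18 lay between genes, 5 in coding exons, 4 in other exons and 2 in introns. For 8 of the 29 the nearest coding 5' end belonged to another gene, and 13 summits also lay in the window of another coding gene. When a summit counted only for the nearest coding 5' end, 23 of the 29 chaperone genes kept a pooled call. Over all protein-coding genes, 5211 of the 6309 did. The places and shared windows were not counted over all genes, so they are not read as traits of the set. Genes for tRNA, snRNA and snoRNA were all farther than 200 bp from the members' pooled summits, the nearest being 1492 bp from the hsp-1 summit. This is near the share over all protein-coding genes. Without calls near small RNA genes, 6186 of the 6309 still had a pooled call.

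The proteins that work with these chaperones were described from a list of 35 genes, chosen with earlier results of these data known. An optimal call was found at 5 of the 35, against 1.61% of all protein-coding genes. The strongest was at bag-1, a nucleotide exchange factor of Hsp70, with a pooled signal of 243 (rank 77) at 212 bp upstream and ranks of 64 and 129 in replicates 1 and 2. The ER stress regulator xbp-1 had a pooled signal of 164 (rank 336) at 158 bp inside the gene, with ranks of 463 and 336. The other 3 were among the 665 strongest calls of 1 replicate only. The protein disulfide isomerase gene pdi-3 had a pooled rank of 453 at 91 bp inside the gene and rank 406 in replicate 1, while its strongest call in replicate 2 ranked 2013 and lay elsewhere, at -686 bp. The related gene pdi-2 had a pooled rank of 492, with ranks of 1793 and 278 in replicates 1 and 2. The prefoldin gene pfd-1, whose complex hands clients to TRiC, had a pooled rank of 471, with ranks of 353 and 1868. Among the 665 strongest calls of both replicates were thus 2 of the 35, against 0.961% of all protein-coding genes. By class, an optimal call was found at 1 of 10 Hsp70 and Hsp90 cofactors, 1 of 6 prefoldin genes, 2 of 7 ER folding genes, 0 of 6 genes of mitochondrial quality control and 1 of 6 regulators. At hsf-1, which encodes the heat shock transcription factor and is named for that role, no optimal call was found, and the pooled rank was 19794.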

How the data were processed

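Chromatin immunoprecipitation and sequencing of tagged SDZ-12 was done in 2 biological replicates of 1 group. The authors' deposited lists give a signal value and a −log10 q-value for each call on ce11. Per the authors' deposited file listings, calls were made in replicate 1, in replicate 2 and on pooled alignments, each with a control, and the optimal list was derived from them with IDR, the irreproducible discovery rate. The peak caller, its version and the threshold are not given in the sources used here. No read counts were used, so depth is unknown and no interval on it is given.

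Calls were ranked by signal, with ties broken by −log10 q-value. Genes and 5' ends came from Ensembl release 115 (WBcel235), sequence and product names from RefSeq of the same assembly. The number of calls in the top group of each replicate equals the 665 of the optimal list. Positions are 1-based. Families and compartments were assigned from textbook knowledge, and 23 members were left without a compartment. Named were members with an optimal call or among the 3000 strongest, all CCT, Hsp70, Hsp90, Hsp110 and Hsp60 genes and the strongest of other families; dnj genes below these were added where their role is known. Members and lists were chosen with earlier results of these data known. No test was made. The assignment of summits to genes was tested on simulated data. Calculations used Python 3.11.15, NumPy 2.4.6, pandas 2.3.3, SciPy 1.17.1 and matplotlib 3.10.9.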

Additional observations from a re-analysis of the deposited data

How the results depend on the processing

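In all, 48 alternatives were computed for the 6 counts of chaperone genes with a call, changing the promoter window, the 5' end, the assignment, the treatment of calls near small RNA genes, the overlap rule, the length of the list or the replicate. Of these, 44 stayed within 1.5 times of the reported count, and in all 48 the share of chaperone genes was above that of all protein-coding genes. The 48 reuse the same calls and genes, so they are not separate checks. For the optimal list, leaving out 1 replicate repeats the top-call count of the other. The 4 that moved share 1 setting, in which a summit counts only for the nearest coding 5' end. With it the optimal list gave 3 genes (dnj-13, hsp-1 and hsp-3), against 5, because the summits at cct-8 and hsp-60 lie nearer to Y55F3AR.2 and Y22D7AL.10. The top calls of replicate 1 gave 3, against 5, those of replicate 2 gave 2, against 4, and those of both replicates gave 2, against 4. With the same setting the 3000 strongest pooled calls gave 6, against 9, which lies at the limit of 1.5 times. Without replicate 1 or without replicate 2, the same number of calls gave 4 to 5 genes for the optimal list, 27 for any call, and 6 to 11 for the 3000 strongest calls. With 500 bp upstream hsp-60 lost its optimal call. Depth is unknown, so an absent call does not show an unoccupied promoter, and nothing here measures transcription of the genes.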
